A study of Mus musculus with 16 samples.

Results

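Expression of 10 genes for scaffolds, an adaptor and regulators around the phosphatase SHP2 and RAS was followed by RNA-seq in pre-B cells of the mouse. These are precursors that BCR-ABL1 can turn into acute lymphoblastic leukaemia. The genes were taken by symbol and by their known roles: the scaffold genes Gab1, Gab2 and Gab3, the adaptor gene Grb2, the exchange factor genes Sos1, Sos2 and Rasgrp2, and the GTPase activator genes Nf1, Rasa1 and Rasa2. The set was chosen with earlier results of these data known. Its shares given beside those of all genes therefore describe the set and are no independent test of it. All 10 were among the 23279 symbols of the deposited table, and 9 were among the 10210 genes that reached 1 FPKM in at least 4 of 16 libraries and were tested; Gab1 was below that level. FPKM counts sequenced fragments relative to transcript length and to all fragments mapped in a library.

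The libraries fell into 4 groups of 4, numbered 0 to 3 in each: SHP2-null cells with BCR-ABL1, SHP2 wild-type BCR-ABL1 cells, SHP2-null cells without BCR-ABL1, and SHP2 wild-type cells without BCR-ABL1. SHP2 null was labelled -/- and wild type +/+ throughout. For BCR-ABL1 the genotype labels read NULL (-/-) or WT (+/+), and WT (+/+) was taken as carrying BCR-ABL1, because the protocol names its groups as BCR-ABL1 or WT; the direction of every BCR-ABL1 comparison rests on that reading. BCR-ABL1 is a fusion that leaves the ABL1 kinase constantly active. The sources used here do not give strain, age, how BCR-ABL1 was introduced or what drove the deletion of SHP2. Nor do they say if the 4 libraries of each group are from different animals or cultures, so the p-values reflect spread between libraries that may be technical.

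In the textbook account, a phosphorylated GAB scaffold gathers SHP2, GRB2 and other signalling proteins beneath an active kinase, and GAB2 binds BCR-ABL1 through GRB2. GRB2 carries SOS to the membrane, where SOS loads RAS with GTP. NF1, RASA1 and RASA2 speed the hydrolysis of that GTP and so switch RAS off, and SHP2 is required for full RAS activation by many receptors.

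Ptpn11, which encodes SHP2, separated the labels: it lay at 3.56 to 6.07 FPKM in the null and at 15.7 to 18.0 FPKM in the wild-type libraries with BCR-ABL1, and at 2.87 to 7.43 FPKM in the null and 16.1 to 17.6 FPKM in the wild-type libraries without it. All 14 pre-B markers averaged at least 1 FPKM in every group, with summed levels of 2850 to 3919 FPKM. One library stood apart. The sum of 9 myeloid markers was 509 FPKM in SHP2-null replicate 2 without BCR-ABL1, of which Lyz2 gave 403 FPKM, and 34.4 to 76.3 FPKM in the other 15 libraries. The sum of 6 mast cell markers was 0.793 to 2.31 FPKM in null cells and 1.02 to 3.37 FPKM in wild-type libraries with BCR-ABL1, and 0.255 to 12.2 FPKM in null cells and 6.83 to 11.8 FPKM in wild-type libraries without it. Sums of the marker lists for T and NK cells, for erythroid cells and megakaryocytes, and for stromal cells stayed at or below 2.98, 0.971 and 0.112 FPKM in all 16 libraries. Without counts in the files, depth is unknown. In bulk RNA, a change in the share of a cell type and a change in RNA per cell cannot be told apart.

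Upstream sequence is shown for 3 of the 10 genes, Gab1, Rasa2 and Rasa1. Gab1 was the member with the widest ratio between its highest and lowest library. The other choices rest on the spread of group means on the log2(FPKM + 1) scale. That spread was widest for Rasa2 among the tested members, and narrowest for Rasa1 among the member genes for GTPase activators. RefSeq promoter entries (GRCm38.p6) were found for 8 of the 10, and each sequence is the part of the entry that lies before every annotated start, read 5′ to 3′ on the minus strand of all 3 genes. The stretches are chr8:80880520-80880769 for Gab1, chr9:96631618-96631753 for Rasa2 and chr13:85289487-85289736 for Rasa1. Capitals mark matches to a motif.
Gab1: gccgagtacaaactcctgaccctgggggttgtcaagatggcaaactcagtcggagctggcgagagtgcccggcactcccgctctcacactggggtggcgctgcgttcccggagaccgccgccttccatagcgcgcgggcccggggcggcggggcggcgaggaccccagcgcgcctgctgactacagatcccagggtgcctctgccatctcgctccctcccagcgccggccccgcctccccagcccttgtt
Rasa2: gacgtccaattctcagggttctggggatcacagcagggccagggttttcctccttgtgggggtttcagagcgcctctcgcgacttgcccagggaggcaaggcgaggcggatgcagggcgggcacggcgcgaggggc
Rasa1: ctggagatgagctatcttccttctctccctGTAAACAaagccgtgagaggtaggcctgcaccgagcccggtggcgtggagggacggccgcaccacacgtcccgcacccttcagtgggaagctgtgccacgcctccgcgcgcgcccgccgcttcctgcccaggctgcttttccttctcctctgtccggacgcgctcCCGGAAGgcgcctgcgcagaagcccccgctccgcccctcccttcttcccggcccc
Motifs were searched on both strands: TTCNNNGAA, the site class of STAT factors, CCGGAAG for ETS factors, the E-box CACGTG, the AP-1 site TGANTCA, and TGTTTAC for forkhead factors. In the Rasa1 stretch an ETS match and a forkhead match on the reverse strand were found, and no match was found in the Gab1 and Rasa2 stretches. For comparison, windows were the first 250 bases of each of 32851 mouse promoter entries. Unlike the stretches above, these windows were not cut to lie before every annotated start, so the 2 are not fully alike. Of these windows, 7.02% held the STAT letters, 6.91% the ETS letters, 6.02% the E-box, 6.75% the AP-1 letters and 3.17% the forkhead letters. In windows of 136 bases, the length for Rasa2, the shares were 3.96%, 2.18%, 2.54%, 3.53% and 1.83%. A match describes letters, not binding, and the 250-base Gab1 and Rasa1 stretches were 70.8% and 68.8% G or C against a median of 52.4% over all windows.

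Expression levels spanned a wide range. Over the 16 libraries, the mean level was 50.4 FPKM for Rasgrp2, 16.2 for Grb2, 10.1 for Rasa1, 5.10 for Sos2, 4.38 for Gab2, 4.01 for Rasa2, 2.50 for Sos1, 2.01 for Nf1, 1.12 for Gab3 and 0.666 FPKM for Gab1. Rasgrp2, Grb2 and Rasa1 each lay apart from the next gene in every library. From Sos2 downward, the ranges of neighbouring genes overlapped across libraries, and Sos2 lay above Gab2 in 13 of 16 and Gab2 above Rasa2 in 11 of 16. The plot of levels shows that the GAB genes, Nf1 and Rasa2 differed most between groups by the ratio of the highest to the lowest group mean, while Grb2, Sos2 and Rasa1 differed least by that ratio.

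**Figure D1:**
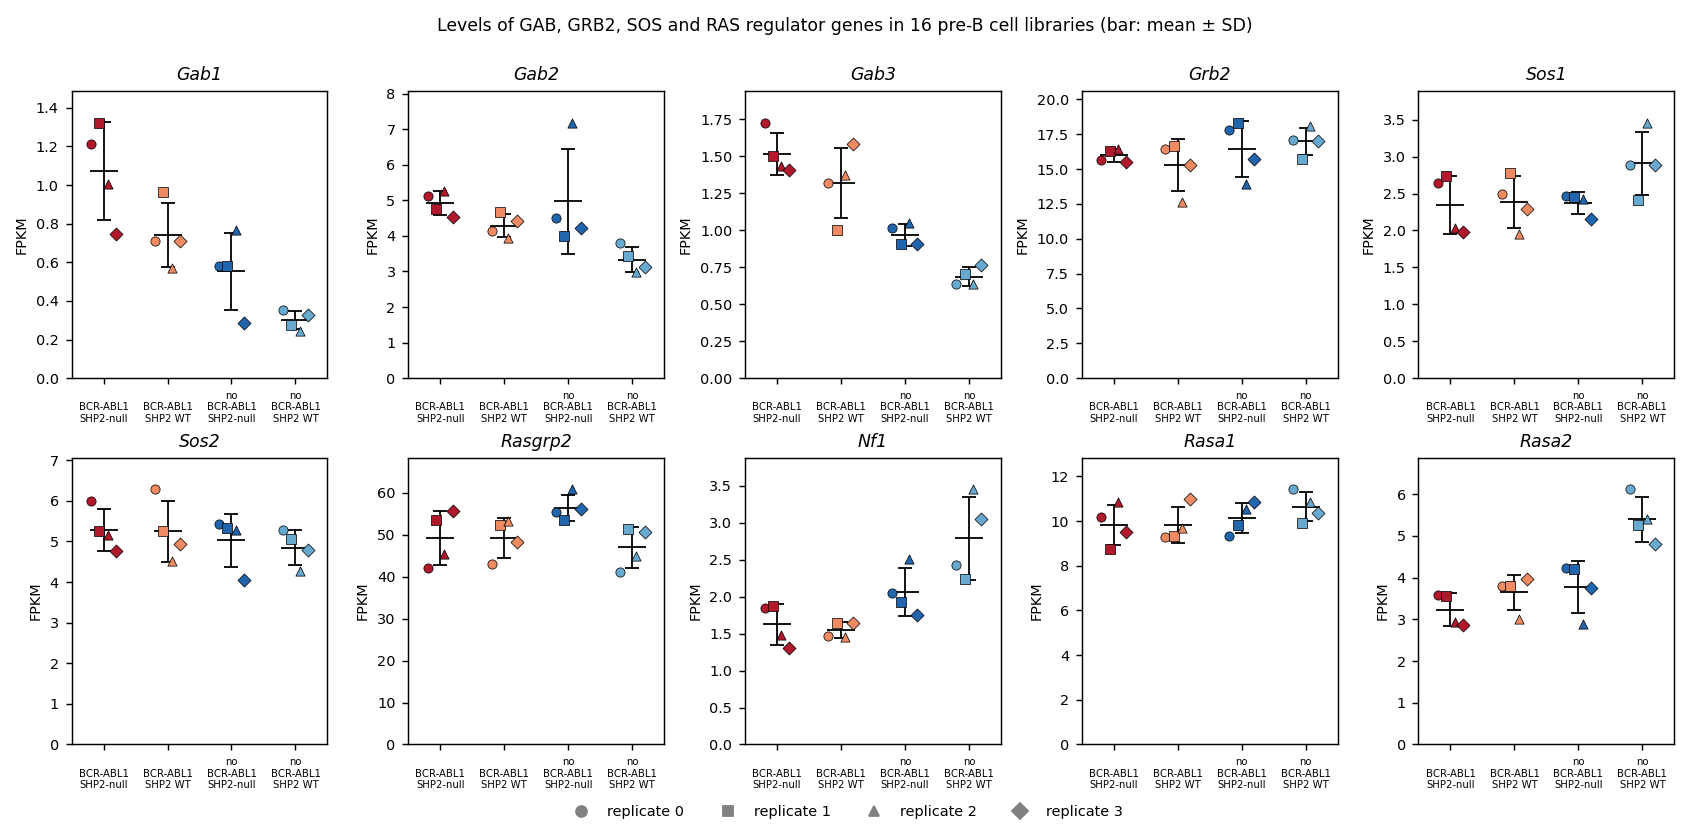
Level in FPKM (vertical axes, linear from 0) of each of the 10 genes in the 4 groups (horizontal axes), with a symbol per library and a bar for the mean ± SD of 4 libraries. Gab3 lies at 1.00 to 1.58 FPKM in SHP2 wild-type libraries with BCR-ABL1, above the 0.634 to 0.766 FPKM without it, and Rasa2 at 3.01 to 3.97 FPKM, below the 4.80 to 6.11 FPKM.

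The first comparison asked what BCR-ABL1 changes in SHP2 wild-type cells. Gab3 rose, and Nf1 and Rasa2 fell, so 1 scaffold gene was higher and 2 of the 3 GTPase activator genes among the members were lower in cells with BCR-ABL1. These were 3 of 9 tested members (limma, Benjamini-Hochberg adjusted p below 0.05 over all genes tested), where 4.67% of all 10210 genes passed. By their values alone, 5 of the 10 members had groups that did not overlap, namely Gab1, Gab2 and Gab3 with higher and Nf1 and Rasa2 with lower values, against 11.7% of all genes tested. Among the 9 tested members these were Gab2, Gab3, Nf1 and Rasa2. In this and the later counts without overlap, the 10 members include Gab1, while the shares of all genes cover only genes tested. The median log2 change over the 9 members was -0.11, and 0.04 over all genes. Fold changes and log2 changes are on the log2(FPKM + 1) scale, which understates the change of low genes.

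Gab3 (chrX:74966843-75085458) encodes the GAB scaffold known mainly from haematopoietic cells. In SHP2 wild-type cells it read 1.32, 1.00, 1.37 and 1.58 FPKM with BCR-ABL1 and 0.634, 0.705, 0.636 and 0.766 FPKM without it. Every library with BCR-ABL1 lay above every library without it, and the ratio of the mean levels was 1.93. The log2 change was 0.46 ± 0.08 (SE, n = 4 each, limma adjusted p = 0.00353), and the adjusted p stayed between 0.000345 and 0.0283 under the alternatives that tested it. Gab3 reached 1 FPKM in all 4 libraries of each group with BCR-ABL1, and in 2 null and 0 wild-type libraries without it. It thus passed the level filter mainly through the groups where it was high, a limit on both Gab3 calls for BCR-ABL1.

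Gab2 (chr7:97081586-97308946) encodes the scaffold that GRB2 ties to BCR-ABL1. It read 4.13, 4.66, 3.95 and 4.43 FPKM in SHP2 wild-type BCR-ABL1 cells and 3.80, 3.43, 2.99 and 3.13 FPKM in those without it. The groups did not overlap, but the lowest library with BCR-ABL1 lay only just above the highest without it. The log2 change of 0.29 (95% interval 0.03 to 0.55) did not pass (limma adjusted p = 0.204).

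Gab1 (chr8:80764438-80880519) encodes the broadly expressed scaffold downstream of many growth factor receptors. It read 0.711, 0.966, 0.571 and 0.711 FPKM in SHP2 wild-type BCR-ABL1 cells, against 0.351, 0.275, 0.246 and 0.328 FPKM in those without it. All 4 libraries with BCR-ABL1 lay above all 4 without it, and the ratio of the mean levels was 2.46. Since Gab1 was under the level filter, it was tested by an exact two-sided permutation test, which gave p = 0.0286, the smallest that 4 against 4 libraries allow, and 0.0762 after adjustment over the 4 Gab1 comparisons. In a fit of all genes without the filter the adjusted p from limma was 0.0415, and leaving out any of the 8 libraries put it at 0.0512 to 0.124.

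Nf1 (chr11:79339693-79581612) encodes neurofibromin, a GTPase activator for RAS and a tumour suppressor. In SHP2 wild-type cells it read 1.47, 1.64, 1.45 and 1.64 FPKM with BCR-ABL1 and 2.42, 2.24, 3.45 and 3.05 FPKM without it. The levels with BCR-ABL1 were close together and all below those without it, at a ratio of means of 0.556. The log2 change was -0.56 ± 0.11 (SE, limma adjusted p = 0.00696), with adjusted p from 0.00259 to 0.0461 under the alternatives that tested it.

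Rasa2 (chr9:96539300-96631617) encodes a GTPase activator of the GAP1 family. It read 3.80, 3.79, 3.01 and 3.97 FPKM in SHP2 wild-type BCR-ABL1 cells, and 6.11, 5.26, 5.39 and 4.80 FPKM without it. The groups were apart, and the library with the lowest value was BCR-ABL1 wild-type replicate 2. Rasa2 fell by 0.46 ± 0.10 on the log2 scale (SE, limma adjusted p = 0.0190). The call was lost in 3 of the 8 fits that left out a library, with adjusted p = 0.0653 without BCR-ABL1 wild-type replicate 2, 0.0508 without replicate 0 and 0.0561 without replicate 2 of the wild-type libraries that lacked BCR-ABL1. Over all alternatives the limma adjusted p ran from 0.000992 to 0.0969.

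The remaining members did not pass in this comparison. Rasa1 (chr13:85214780-85289130), whose product binds phosphorylated receptors through SH2 domains, averaged 9.82 ± 0.792 FPKM with BCR-ABL1 and 10.6 ± 0.652 FPKM without it (SD, n = 4 each), with a log2 change of -0.11 (95% interval -0.27 to 0.05). Sos1 (chr17:80393751-80480453) averaged 2.38 ± 0.349 and 2.91 ± 0.429 FPKM with and without BCR-ABL1, with a log2 change of -0.21 (-0.42 to 0.01). For Sos2 (chr12:69583762-69681852) the interval was -0.12 to 0.30, for Grb2 (chr11:115644045-115708597) -0.34 to 0.04 and for Rasgrp2 (chr19:6399340-6415216) -0.15 to 0.28 on the log2 scale. The mast cell marker sum given above also differed between these 2 groups. Its genes Cma1 and Mcpt4 were at 0 in all 4 wild-type libraries with BCR-ABL1 and Mrgprb1 in all 4 without it. The genes of the sum did not move together. Cpa3 lay at 0.0401 to 1.39 FPKM with BCR-ABL1 and at 3.90 to 7.54 FPKM without it. Kit went the other way, at 0.968 to 1.85 FPKM with BCR-ABL1 and 0.415 to 0.803 FPKM without it. The part of mast cell markers in these results was not tested.

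**Figure D2:**
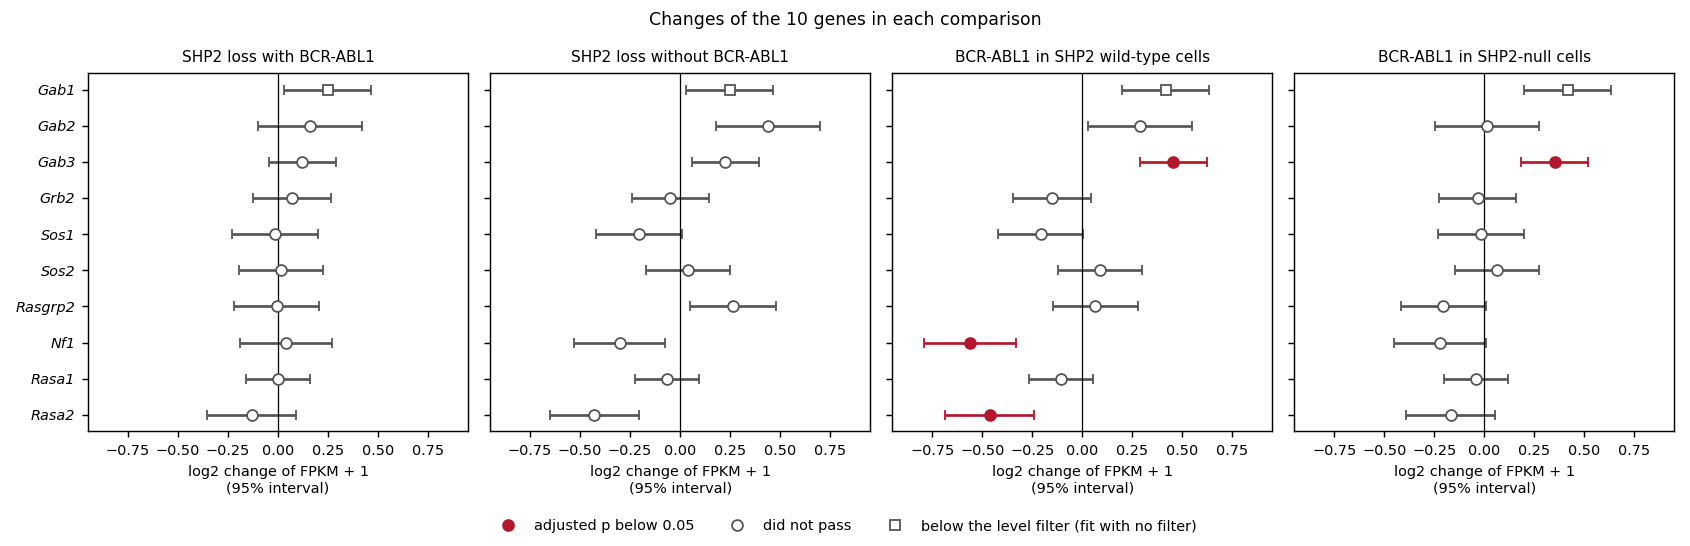
Log2 change of FPKM + 1 (horizontal axes, with 95% intervals) of each gene in 4 comparisons, each the first-named state minus its counterpart; filled red circles passed at an adjusted p below 0.05, open circles did not, and open squares mark Gab1 from the fit with no filter, whatever its p. Filled points are Gab3 at 0.46, Nf1 at -0.56 and Rasa2 at -0.46 for BCR-ABL1 in SHP2 wild-type cells, then Gab3 at 0.35 for BCR-ABL1 in SHP2-null cells.

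In SHP2-null cells, the same question gave 1 call among the 9 tested members, Gab3, where 1.26% of all genes passed. Gab3 read 1.72, 1.50, 1.43 and 1.41 FPKM in null cells with BCR-ABL1 and 1.02, 0.907, 1.05 and 0.908 FPKM in null cells without it. The groups did not overlap, and Gab3 was the only 1 of the 10 members for which this held, against 7.07% of all genes. The log2 change was 0.35 ± 0.08 (SE, limma adjusted p = 0.0439), and 0.0228 with the replicate number as a block, a fit that passed 5.27% of all genes. The call was lost in 7 of 8 fits that left out a library, with adjusted p up to 0.162, and held only without SHP2-null replicate 2 without BCR-ABL1, at 0.0402; the 7 were all 4 null libraries with BCR-ABL1 and replicates 0, 1 and 3 of those without it.

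Gab1 was at 1.21, 1.32, 1.00 and 0.748 FPKM in null cells with BCR-ABL1 and at 0.579, 0.581, 0.765 and 0.285 FPKM in null cells without it. The groups overlapped at 1 library of each, replicate 3 with BCR-ABL1 and replicate 2 without it, and the ratio of the means was 1.94. The exact two-sided permutation test gave p = 0.0571, or 0.0762 over the 4 Gab1 comparisons. The filter-free limma fit gave adjusted p = 0.0823, and 0.0453 with the replicate block.

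Gab2 did not pass between null cells with and without BCR-ABL1. It read 5.14, 4.75, 5.26 and 4.52 FPKM with BCR-ABL1 and 4.51, 4.00, 7.17 and 4.23 FPKM without it. The single high value without BCR-ABL1 was in replicate 2, the library with high myeloid markers. The log2 change was 0.01 (95% interval -0.25 to 0.27) with that library and 0.17 without it, and neither passed (limma adjusted p = 0.982 and 0.312).

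Nf1 and Rasa2 were at lower mean levels in null cells with BCR-ABL1 too, but did not pass. Nf1 averaged 1.63 ± 0.278 FPKM with BCR-ABL1 and 2.06 ± 0.323 FPKM without it (SD, n = 4 each), a log2 change of -0.22 (95% interval -0.45 to 0.01). Rasa2 averaged 3.23 ± 0.391 and 3.77 ± 0.626 FPKM with and without BCR-ABL1, a log2 change of -0.17 (-0.39 to 0.06). Rasgrp2 averaged 49.1 ± 6.42 and 56.4 ± 3.10 FPKM, a log2 change of -0.20 (-0.42 to 0.01). Intervals for Grb2, Sos1, Sos2 and Rasa1 all included 0 and lay within -0.23 and 0.28.

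In BCR-ABL1 cells, loss of SHP2 moved none of the members past the test. Of 9 tested, 0 passed in limma, where 0.313% of all genes did, and 0 with the replicate block, where 0.470% did. None of the 9 had an unadjusted p below 0.05. None of the 10 members had groups that did not overlap, against 3.10% of all genes. Log2 changes of the 9 ran between the -0.13 of Rasa2 and the 0.16 of Gab2, with a median of 0.01 beside -0.02 over all genes.

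Within that comparison the scaffold genes had the highest log2 changes. Gab2 averaged 4.92 ± 0.341 FPKM in null cells and 4.29 ± 0.314 FPKM in wild-type cells (SD, n = 4 each), a log2 change of 0.16 (95% interval -0.10 to 0.42). Gab3 averaged 1.52 ± 0.144 and 1.32 ± 0.239 FPKM in null cells and wild-type cells, a log2 change of 0.12 (-0.05 to 0.29). For Gab1 the null libraries given above overlapped the wild-type libraries, with a ratio of means of 1.45 and an exact permutation p of 0.0571, or 0.0762 over its 4 comparisons. In the filter-free limma fit its log2 change was 0.25 (95% interval 0.03 to 0.47, unadjusted p = 0.0286), which did not pass after adjustment.

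Genes of the GRB2 and SOS pair, which links the scaffolds to RAS, had overlapping levels. Grb2 lay at 15.5 to 16.4 FPKM in null cells and 12.6 to 16.7 FPKM in wild-type cells with BCR-ABL1. The summed level of Sos1 and Sos2 averaged 7.64 ± 0.838 FPKM in null cells and 7.63 ± 0.996 FPKM in wild-type cells (SD, n = 4 each). For the 3 GTPase activators, the 95% intervals of the log2 change were -0.19 to 0.27 for Nf1, -0.16 to 0.16 for Rasa1 and -0.36 to 0.09 for Rasa2, so changes within these bounds are not shown to be absent.

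Loss of SHP2 without BCR-ABL1 gave larger differences. Rasa2 was lower, and Gab2, Gab3 and Rasgrp2 were higher, in all 4 null libraries than in all 4 wild-type libraries, which made 4 of 10 members without overlap against 9.09% of all genes. None of the 9 tested members passed in the limma fit without a block, where 1.54% of all genes did, although 5 had an unadjusted p below 0.05, as did 16.1% of all genes. With the replicate number as a block, 1 of 9 passed, Rasa2, and 5.75% of all genes did. The mast cell marker sum also differed here, at 2.24, 0.255, 12.2 and 3.53 FPKM in null libraries and 6.83 to 11.8 FPKM in wild-type libraries. Of its genes, Cma1 averaged 0.652 and 2.97 FPKM and Cpa3 2.05 and 5.59 FPKM in null and wild-type cells. Kit did not fall with them, at 0.606, 0.226, 5.34 and 0.891 FPKM in null libraries and 0.415 to 0.803 FPKM in wild-type libraries. The part of mast cell markers in this comparison was not tested.

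Rasa2 read 4.24, 4.20, 2.89 and 3.76 FPKM in null cells without BCR-ABL1, against the 4.80 to 6.11 FPKM of their wild-type counterparts. Its lowest null value was in replicate 2, the library with high myeloid markers. The log2 change was -0.43 ± 0.10 (SE), with an adjusted p of 0.0554 from limma without the block and 0.00780 with it. With a library left out, the log2 change without the block ran from -0.48 to -0.33, and the limma adjusted p from 0.0554 to 0.149. The 3 groups with BCR-ABL1, with SHP2 loss or with both overlapped one another in Rasa2 level, and all 12 of their libraries lay below the 4 of wild-type cells without BCR-ABL1.

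Gab2 read 4.51, 4.00, 7.17 and 4.23 FPKM in null cells, above the 2.99 to 3.80 FPKM of wild-type cells without BCR-ABL1. Its log2 change was 0.44 (95% interval 0.18 to 0.70, limma adjusted p = 0.0965, and 0.0551 with the block). Without null replicate 2, where Gab2 was highest and the myeloid marker sum was 509 FPKM, the log2 change was 0.28 (adjusted p = 0.141). The part of myeloid markers in the value of that library was not tested.

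Gab3 lay at 0.907 to 1.05 FPKM in null cells and 0.634 to 0.766 FPKM in wild-type cells without BCR-ABL1, a log2 change of 0.23 (95% interval 0.06 to 0.39, limma adjusted p = 0.180). Gab1, at the levels given above, overlapped at 1 null library and had a ratio of means of 1.84 (exact two-sided permutation p = 0.0857, also after adjustment over its 4 comparisons). Its log2 change in the filter-free limma fit was 0.25 (95% interval 0.03 to 0.46, adjusted p = 0.319). Each of the 3 scaffold genes thus had a higher mean in null than in wild-type cells in both settings, without passing in either in the limma fit without a block. With array weights Gab2 passed for SHP2 loss without BCR-ABL1 (limma adjusted p = 0.0439). The share of all genes that passed in that fit is not given here.

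Rasgrp2 encodes a calcium- and diacylglycerol-regulated exchange factor that acts mainly on RAP1, a relative of RAS. It read 55.4, 53.5, 60.8 and 56.1 FPKM in null cells without BCR-ABL1 and 41.1, 51.4, 44.9 and 50.6 FPKM in their wild-type counterparts. All null libraries lay above all wild-type libraries, and above all 4 wild-type libraries with BCR-ABL1. The log2 change was 0.26 (95% interval 0.05 to 0.48, limma adjusted p = 0.214, and 0.0651 with the block).

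Among the other members in this comparison, Nf1 averaged 2.06 ± 0.323 FPKM in null cells and 2.79 ± 0.560 FPKM in wild-type cells (SD, n = 4 each), a log2 change of -0.30 (95% interval -0.53 to -0.07, limma adjusted p = 0.187). Sos1 averaged 2.37 ± 0.149 and 2.91 ± 0.429 FPKM, a log2 change of -0.21 (-0.42 to 0.01). Intervals were -0.24 to 0.14 for Grb2, -0.17 to 0.25 for Sos2 and -0.22 to 0.09 for Rasa1.

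Whether the effect of SHP2 loss differed by BCR-ABL1 was tested as an interaction. In limma 0 of all 10210 genes passed (0.00%), with or without the replicate block, and 591 had an unadjusted p below 0.05, which is 5.79%. Of the 9 members 1 did, Nf1, whose difference of log2 changes was 0.34 (95% interval 0.02 to 0.66, unadjusted p = 0.0405, limma adjusted p = 0.839). For Rasa2 the difference was 0.30 (-0.02 to 0.61), for Rasgrp2 -0.27 (-0.57 to 0.03) and for Gab2 -0.28 (-0.65 to 0.09), so effects with and without BCR-ABL1 were not shown to differ for any member. The comparisons share libraries, since each group enters a pair of them.

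The makeup of the GAB scaffold RNA is a further description, with no test. The summed level of the 3 genes averaged 7.50 ± 0.593 FPKM in null cells and 6.35 ± 0.392 FPKM in wild-type BCR-ABL1 cells, and 6.50 ± 1.69 FPKM in null cells and 4.32 ± 0.379 FPKM in wild-type cells without it (SD, n = 4 each). Gab2 was the main component in every library. Its share of the sum averaged 65.6% and 67.5% in null and wild-type BCR-ABL1 cells, and 76.1% and 77.1% in null and wild-type cells without it. Gab3 made up 20.2% and 20.9% with BCR-ABL1 and 15.4% and 16.0% without it, and Gab1 14.2% and 11.6% with and 8.46% and 6.93% without it, each pair given as null and wild-type cells. The 4 wild-type libraries without BCR-ABL1 had the lowest sums, 3.88 to 4.78 FPKM, and the highest sum, 8.99 FPKM, was in null replicate 2 without BCR-ABL1.

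**Figure D3:**
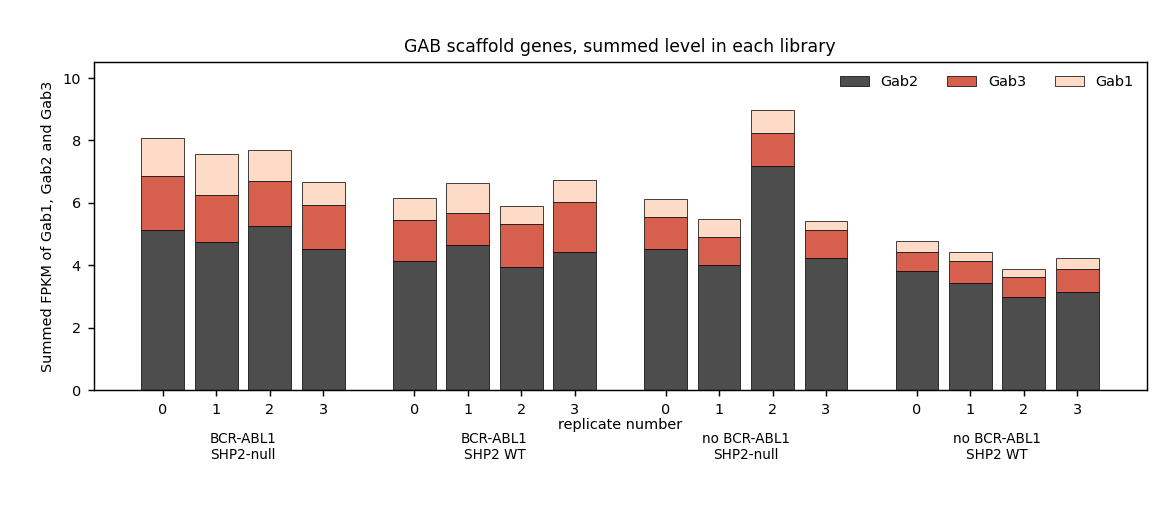
Summed FPKM of Gab2, Gab3 and Gab1 (stacked bars from 0) in each of the 16 libraries, numbered by replicate within the 4 groups. The sums run from 6.68 to 8.08 FPKM in SHP2-null libraries with BCR-ABL1 and from 3.88 to 4.78 FPKM in SHP2 wild-type libraries without it.

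The 3 activator genes among the members had their highest sums where the scaffold genes had their lowest, in wild-type cells without BCR-ABL1. The summed level of Nf1, Rasa1 and Rasa2 averaged 14.7 ± 0.909 FPKM in null cells and 15.0 ± 1.08 FPKM in wild-type BCR-ABL1 cells, and 16.0 ± 0.301 FPKM in null cells and 18.8 ± 1.22 FPKM in wild-type cells without it. Rasa1, the most abundant of the 3, kept group means between 9.82 and 10.6 FPKM. The sum does not stand for all GTPase activator genes. Rasa3, which is not a member and read higher than these 3, had its lowest mean in wild-type cells without BCR-ABL1. It averaged 28.9 FPKM there, 34.9 FPKM in null cells without BCR-ABL1, and 37.2 and 36.7 FPKM in null and wild-type BCR-ABL1 cells. Sos2 RNA exceeded Sos1 RNA in all groups, with 62.5% to 69.4% of their sum on average.

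Rasa2 had the widest range of group means among the tested members, 0.60 on the log2(FPKM + 1) scale. Gab3 followed at 0.58 and Nf1 at 0.56, and Sos2 had the narrowest at 0.10. This order depends on the scale. Group means ran from 0.685 to 1.52 FPKM for Gab3, 1.55 to 2.79 for Nf1 and 3.23 to 5.39 FPKM for Rasa2. By the ratio of highest to lowest group mean, Gab3 and Nf1 thus ranged wider than Rasa2, and Rasa1 was narrower than Sos2. The genes whose profile over the 16 libraries was most like that of Rasa2 were looked up by the mean absolute difference of standardized log2(FPKM + 1) values. These were Spred1, at 0.255 SD, Rffl, which encodes a ubiquitin ligase, at 0.272 SD, Slc12a2, a chloride cotransporter gene, at 0.275 SD, Tnfsf4, the gene of OX40 ligand, at 0.279 SD, and Slc37a3 at 0.282 SD, where the median over all genes was 1.17 SD. Spred1 averaged 7.41 and 7.67 FPKM in null cells and wild-type BCR-ABL1 cells, and 8.91 and 14.8 FPKM in null cells and wild-type cells without it. The measure covers 16 libraries that share their groups, and no p is given for it.

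**Figure D4:**
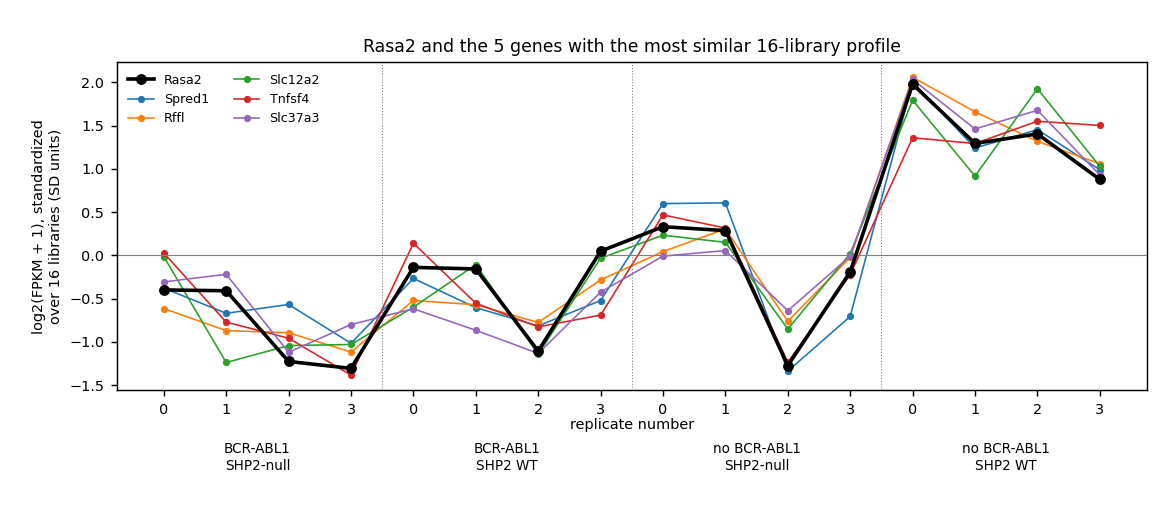
Standardized log2(FPKM + 1) (vertical axis, SD units over 16 libraries) of Rasa2 (thick black line) and of the 5 genes with the most similar profile, by library and group; lines join libraries only to guide the eye. All 6 genes are highest in the 4 SHP2 wild-type libraries without BCR-ABL1, where Rasa2 read 4.80 to 6.11 FPKM.

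Around the 10 members, 47 other genes of the RAS pathway were listed, of which 35 were tested. In BCR-ABL1 against no BCR-ABL1 in SHP2 wild-type cells, 3 of the 35 rose and 1 fell, where 4.67% of all genes passed. In SHP2-null cells 0 rose and 1 fell, where 1.26% of all genes passed, and with loss of SHP2 without BCR-ABL1 1 rose and 0 fell, where 1.54% did. With loss of SHP2 in the presence of BCR-ABL1 none passed in limma, where 0.313% of all genes did, and none had an unadjusted p below 0.05, as 3.65% of all genes had. The median log2 change of the 35 lay between 0.00 and 0.05 in these 4 comparisons, beside -0.02 to 0.04 over all genes.

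Among 6 other tested GTPase activator genes, 2 rose with BCR-ABL1 in SHP2 wild-type cells, where Nf1 and Rasa2 fell and 4.67% of all genes passed. Rasa3, a relative of Rasa2 whose product acts on RAP1 and RAS, read 37.5, 37.5, 35.5 and 36.1 FPKM with BCR-ABL1 and 27.9, 29.5, 28.6 and 29.7 FPKM without it. The groups were far apart for their spread, and Rasa3 rose by 0.33 ± 0.05 on the log2 scale (SE, limma adjusted p = 0.00141). Rasal1 averaged 3.33 ± 0.760 FPKM with BCR-ABL1 and 1.34 ± 0.587 FPKM without it (adjusted p = 0.0250 from limma), a call lost in 5 of 8 fits that left out a library, namely replicates 0, 1 and 2 with BCR-ABL1 and replicates 0 and 2 without it. Over all alternatives the limma adjusted p of Rasal1 reached 0.151. Rasa3 also rose with loss of SHP2 without BCR-ABL1, to 34.9 ± 1.37 FPKM in null cells, against 28.9 ± 0.828 FPKM in wild-type cells (limma adjusted p = 0.0161), a call lost without wild-type replicate 0 or 2 (adjusted p = 0.0509 and 0.0549). Over all alternatives the limma adjusted p of Rasa3 in that comparison ran from 0.00181 to 0.148. The difference of its SHP2 effects was the one with the smallest p among the 35 genes, at -0.24 (unadjusted p = 0.00435, limma adjusted p = 0.713).

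Of 14 tested adaptor genes, 1 rose and 1 fell with BCR-ABL1 in SHP2 wild-type cells, beside the same 4.67% of all genes. Dok3, which encodes a docking protein that dampens B cell receptor signals, averaged 16.2 ± 2.78 FPKM with BCR-ABL1 and 9.59 ± 2.19 FPKM without it (limma adjusted p = 0.0384). That call was lost in 7 of 8 fits that left out a library, with adjusted p up to 0.133, and held without replicate 1 of the wild-type libraries that lacked BCR-ABL1. Irs2, the insulin receptor substrate gene, averaged 0.647 ± 0.157 and 1.44 ± 0.449 FPKM with and without BCR-ABL1 (limma adjusted p = 0.0187, up to 0.0710 and lost without replicate 0 or 2 with BCR-ABL1 or replicate 2 without it). In SHP2-null cells Irs2 averaged 0.561 ± 0.168 FPKM with BCR-ABL1 and 1.37 ± 0.266 FPKM without it (limma adjusted p = 0.0280, lost in 5 of 8 fits that left out a library, namely replicates 0 and 2 with BCR-ABL1 and replicates 0, 1 and 3 without it). Irs2 reached 1 FPKM in all 4 libraries of each group without BCR-ABL1 and in 0 with it. It thus passed the level filter only through the groups where it was high, a limit on both Irs2 calls. Over all alternatives, the limma adjusted p reached 0.199 for Dok3, and for Irs2 0.0877 in wild-type and 0.128 in null cells. Grap2 had the smallest p for SHP2 loss with BCR-ABL1, at 5.46 ± 0.679 FPKM in null cells and 6.59 ± 0.590 FPKM in wild-type cells (limma adjusted p = 1.00).

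Nras, which encodes a RAS protein, and Rras2, which encodes a relative of RAS, did not pass in any of the 4 comparisons. Nras averaged 33.5 ± 3.61 FPKM in null cells and 34.6 ± 2.43 FPKM in wild-type BCR-ABL1 cells, and 31.6 ± 2.88 FPKM in null cells and 33.1 ± 1.54 FPKM in wild-type cells without it. None of the 9 tested kinase and scaffold genes of the RAF, MEK and ERK cascade and none of the 3 other tested exchange factor genes passed in these comparisons either.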

How the data were processed

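Poly(A) RNA from 16 samples of mouse pre-B cells entered TruSeq Stranded libraries, read as pairs on a HiSeq, per the labels' protocols. The authors deposited FPKM values, 1 column per library; per the submitters' processing notes, the tools were Bowtie and Cufflinks and the build GRCm38, and the sources used here give no versions, annotation or handling of strand. The table held 23758 entries for 23279 symbols; the 254 symbols listed more than once were summed, and none was a member. All 16 per-library files held the same values. Summed FPKM was 348923 to 443702, with 9829 to 10134 genes per library at 1 FPKM or more. Depth is unknown, since the commonest ratio of low values (below 0.05 FPKM, within 1%) held for 12.7% to 17.0% of genes per pair of libraries.

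Values were analysed as log2(FPKM + 1). One limma 3.58.1 fit (R 4.3.3) of 4 group means with a trended prior variance was made over the 10210 genes that reached 1 FPKM in 4 or more libraries. It gave 5 two-sided comparisons, with Benjamini-Hochberg adjustment over all of these genes and calls at an adjusted p below 0.05. Gab1 was tested by exact permutation (scipy 1.17.1). The script was tested on simulated data. Named genes were all 10 members, Ptpn11, pathway genes that passed (or the one with the smallest p), and the 5 genes most like Rasa2. Members and lists were chosen with earlier results of these data known.

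Same-number libraries deviated together from their group means, with correlations of 0.218 to 0.783 between SHP2-null and wild-type BCR-ABL1 libraries. These were 0.189 to 0.510 between those lacking BCR-ABL1, and 0.242 to 0.680 between SHP2-null libraries that differ in BCR-ABL1. The main fit had no block. In these comparisons a fit with the numbers, taken from the sample titles, as a block was given beside it. Not every library correlated best with its own number. With BCR-ABL1, replicate 3 reached 0.822 with another number and 0.218 with its own, and replicate 2 reached 0.478 and 0.338. Without BCR-ABL1, replicate 3 reached 0.538 and 0.461. Between SHP2-null libraries, replicate 2 reached 0.385 and 0.242. Alternatives changed the pseudocount, the filter, the scaling, the samples fitted, the block, the library weights and single libraries, and, added after seeing the data, corrections for GC content and length. Some listed pathway genes are not reported here. Gene positions are from GENCODE M21 (GRCm38).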

Additional observations from a re-analysis of the deposited data

Results flagged for a closer look

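Of 40 sets of 4 libraries, 1 per gene and group, 3 held a library far from the other 3, all in SHP2-null cells without BCR-ABL1; chance gives about 1 in 20. Gab2 was highest in replicate 2, at 7.17 FPKM (gap over range 0.837), where the myeloid marker sum was 509 FPKM, against 41.0 to 76.3 FPKM in the other 3 libraries. Sos1 was lowest in replicate 3, at 2.15 FPKM (gap over range 0.885). Sos2 was lowest in the same replicate 3, at 4.06 FPKM (gap over range 0.892). The part of myeloid markers in the Gab2 value was not tested.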

How the results depend on the processing

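Gab3 and Nf1 with BCR-ABL1 in SHP2 wild-type cells kept their call under every alternative that tested them. The members called in that comparison numbered 0 with a mean of at least 5 FPKM, a filter that left 4 members, none of them called before, and 2 to 3 with a library left out. With BCR-ABL1 in SHP2-null cells, 0 were called with a pseudocount of 0.1, with a mean of at least 5 FPKM, with the groups compared alone and with the GC correction, 2 with array weights (Gab3 and Rasa2), and 0 to 1 with a library left out. With SHP2 loss without BCR-ABL1, 1 was called with quantile normalization, with the replicate block and with the length correction (Rasa2 each time), 2 with the GC correction and replicate block together (Rasa2 and Rasgrp2), 3 with array weights (Gab2, Nf1 and Rasa2), and 0 in every fit that left out a library. Of all genes, 5.75% passed with the block for SHP2 loss without BCR-ABL1, and 1.54% passed in the main fit. For the other alternatives the share of all genes is not given here, so these member counts are no result about the members. No member was called for SHP2 loss with BCR-ABL1 or for the interaction under any alternative. For BCR-ABL1 in SHP2 wild-type cells the fit with the block was not set beside the main fit above. There replicate 3 correlated at 0.0549 with its own number and 0.46 with another, and replicate 2 at 0.338 and 0.725. Replicates 2 and 3 also matched another number better for SHP2 loss with BCR-ABL1, where the block was given. In the wild-type comparison and in the interaction the block left 3 and 0 members called. In the wild-type comparison the genes called numbered 1231 with it and 477 without it. The causes of these shifts were not tested. In 60 cases, none a called result, a log2 change turned its sign, always at a size of at most 0.064. With SHP2 loss with BCR-ABL1 it became 0.020 with median-ratio scaling, 0.011 with quantile normalization and 0.0041 with array weights for Rasa1; 0.016 with median-ratio scaling, 0.044 with quantile normalization, 0.024 with the GC correction, alone or with the block, and 0.0029 with the length correction for Rasgrp2; 0.00072 with median-ratio scaling for Sos1; -0.011 with array weights and -0.0094 with the length correction for Nf1; and -0.012 with the length correction for Sos2. With SHP2 loss without BCR-ABL1 it became -0.00020 with quantile normalization for Sos2, 0.062 with array weights for Grb2 and 0.0093 with the GC correction, alone or with the block, for Rasa1. For the interaction it became 0.0042 with median-ratio scaling and 0.012 with quantile normalization for Sos2, and -0.019 with the GC correction, alone or with the block, for Rasa1. With BCR-ABL1 in SHP2-null cells it became 0.056 for Rasa1 and -0.016 for Sos2 with array weights, and for Gab2 -0.00042 with the GC correction, alone or with the block, and -0.0028 with the length correction. With a library left out, log2 changes ran from -0.014 to 0.11 for Grb2, -0.080 to 0.040 for Sos1, -0.042 to 0.091 for Sos2, -0.069 to 0.063 for Rasgrp2, -0.0077 to 0.098 for Nf1 and -0.045 to 0.049 for Rasa1 with SHP2 loss with BCR-ABL1; from -0.10 to 0.023 for Grb2 and -0.0085 to 0.12 for Sos2 with SHP2 loss without it; from -0.11 to 0.051 for Sos2 in the interaction; and from -0.064 to 0.17 for Gab2, -0.11 to 0.018 for Grb2, -0.072 to 0.035 for Sos1, -0.018 to 0.11 for Sos2 and -0.087 to 0.0070 for Rasa1 with BCR-ABL1 in SHP2-null cells. Scaling moved the median of all genes by at most 0.046 on the log2 scale. The files hold no counts, so what depth limits cannot be stated.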
